A study of Mus musculus with 154 samples.

Results

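The question addressed here was whether 2 A/J-derived chromosomes, 17 and 10, changed liver gene expression when present together by the sum of what each did alone. The double chromosome substitution strain (CSS), labelled (B6.A10 X B6.A17)F1, came from B6.A10 sires and B6.A17 dams and was represented by 4 mice, each heterozygous for A/J chromosomes 17 and 10 on an otherwise C57BL/6J (B6) background. The single strains were (B6 X B6.A17)F1, with 8 mice heterozygous for A/J chromosome 17 and B6.A17 dams, and (B6.A10 X B6)F1, with 8 mice heterozygous for A/J chromosome 10 and B6 dams. The control was B6, with 20 mice. These 40 mice of 4 strains were chosen by strain label from all mice of a series with 24 strains. All were 5 weeks old, were listed as male, were fasted overnight and were anesthetized with isoflurane before euthanasia. Libraries were made from total RNA of the liver. Because a substituted chromosome is exchanged whole, every allelic difference along it entered each comparison, and only effects that show in heterozygotes could be seen. The double CSS and the chromosome 17 CSS shared the dam genotype B6.A17, whereas the chromosome 10 CSS and B6 shared B6 dams. An effect of the dam's genotype therefore cannot be told apart from an effect of chromosome 17.

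Variants near a gene commonly act in cis, on the allele they lie beside, and a cis effect on its own is additive with what another chromosome does. A variant on one chromosome can also act in trans, through a regulator such as a transcription factor or a circulating hormone, on genes of any chromosome. Epistasis is the case in which the effect of one chromosome depends on the alleles of the other. Chromosome 17 carries the major histocompatibility complex (MHC), whose class I and class II proteins present peptides to T cells, and whose genes differ widely between inbred strains. Chromosome 10 carries the pantetheinase genes Vnn1 and Vnn3, which release the precursor of coenzyme A.

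Total counts were 10198810 to 26566797 in the double CSS, 11866128 to 19247473 in the chromosome 17 CSS, 10209102 to 26900169 in the chromosome 10 CSS and 6752637 to 25630807 in B6. Levels are given as CPM, the reads of a gene relative to the size of its library after TMM scaling, differences as log2 fold changes with their standard errors (SE), and genes were called at an adjusted p under 0.05 in edgeR's quasi-likelihood test. Levels of different genes cannot be ranked on this scale, which is not per length. The interaction is the log2 difference of the double CSS from B6 minus the sum of both single differences. Mice 1 and 2 of the chromosome 17 CSS stood apart on the first of 5 surrogate variables, which are factors estimated from the counts to carry unlabelled variation, with values of 0.272 and 0.203 against 0.00845 to 0.0521 in the other 6. That surrogate variable was above 0 in all 8 chromosome 17 CSS mice and below 0 in all 8 chromosome 10 CSS mice, so results in the single strains are given with other numbers of surrogate variables where these change them. Summed hepatocyte markers, such as albumin, lay at 96319 to 126010 CPM in the double CSS and 92897 to 148420 CPM in B6, and 0 of the 7 markers were called in the double CSS by edgeR or DESeq2, also at an unadjusted p under 0.05.

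Against B6, 80 of 13289 genes (0.602%) were called in the double CSS, 43 higher and 37 lower. Of the 1240 genes on chromosomes 17 and 10, 74 were called, or 5.97%, and of the 12049 genes elsewhere 6 were called, or 0.0498%. On chromosome 17, 30 genes were higher and 19 lower. On chromosome 10, 9 were higher and 16 lower. For the interaction, 7 of those 49 genes and 4 of those 25 had an unadjusted p under 0.05, and 0 were called by edgeR. Of all genes on chromosomes 17 and 10, 13.5% and 11.3% passed that unadjusted threshold for the interaction, and 12.3% of all genes did. The median absolute log2 fold change was 0.50 (range 0.21 to 3.13) among the 49 genes called on chromosome 17 and 0.46 (0.20 to 1.15) among the 25 called on chromosome 10. P-values were adjusted separately for genes on the substituted chromosomes and for genes elsewhere. With adjustment over all genes together, 29 and 15 genes were called (2.34% and 0.124%). At an unadjusted p under 0.05, 18.1% of the genes on the substituted chromosomes and 10.01% of those elsewhere passed, or 10.8% of all genes.

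**Figure D1:**
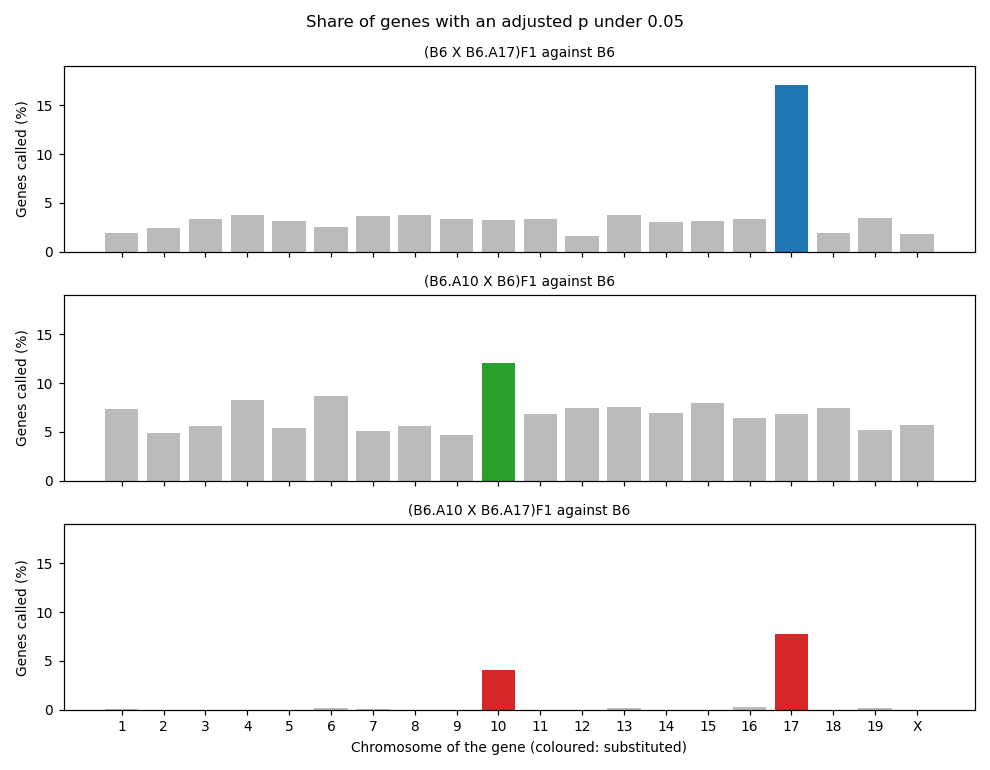
Share of genes called against B6 on each chromosome, in percent, for the chromosome 17 CSS (top), the chromosome 10 CSS (middle) and the double CSS (bottom), with the substituted chromosomes coloured. In the double CSS the bars reach 7.78% on chromosome 17 and 4.1% on chromosome 10, whereas each single CSS also had calls on every other chromosome shown.

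Each single strain, with 8 mice against 4, had more calls than the double CSS. The chromosome 17 CSS had 492 (3.7%), of which 230 were higher (1.73%) and 262 lower (1.97%), and 108 of them lay on chromosome 17. The chromosome 10 CSS had 887 (6.67%), of which 491 were higher (3.69%) and 396 lower (2.98%), and 74 lay on chromosome 10. The median SE was 0.107 in the double CSS, 0.088 in the chromosome 17 CSS and 0.089 in the chromosome 10 CSS. The number of calls on other chromosomes in the single strains varied with the surrogate variables. There were 384 such calls for chromosome 17 with 5 of them, 1578 with none and 41 with 10, and for chromosome 10 there were 813, 1227 and 974.

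Among the chromosome 17 genes, C4a (chr17:34809092-34823464 in mm10, minus strand), a complement C4 gene of the MHC region that GENCODE lists as a processed transcript, had the largest difference from B6 once genes below an average log2 CPM of 2 were set aside. Its level in the 4 double CSS mice was 23.77, 29.88, 18 and 23.45 CPM. In B6 the lowest, median and highest levels were 1.48, 2.88 and 4.43 CPM, and in the chromosome 17 CSS 12.8, 17.5 and 24.6 CPM. All double CSS and chromosome 17 CSS mice were above all B6 mice. The share of all genes with groups that do not overlap was not counted, here or for the genes below. The log2 fold change of C4a was 3.03 ± 0.16 in the double CSS (adjusted p = 4.2e-37) and 2.55 ± 0.14 in the chromosome 17 CSS. The chromosome 10 CSS gave 0.54 ± 0.17, so the interaction was -0.07 ± 0.25 (unadjusted p = 0.79).

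Abca3, a lipid transporter (chr17:24351950-24410201, plus strand), was at 71.3, 58.6, 61.8 and 78.5 CPM in the double CSS mice, against 20.8 to 40.8 CPM in B6. Its log2 fold change was 1.20 ± 0.10 in the double CSS and 0.91 ± 0.08 in the chromosome 17 CSS, with an interaction of 0.31 ± 0.14 (unadjusted p = 0.028, adjusted p = 0.30). Glo1, glyoxalase 1, which detoxifies methylglyoxal, lies at chr17:30584936-30626871 (minus strand) in a segment known to be duplicated in A/J. The levels of Glo1 were 402.1, 418.97, 433.0 and 505.3 CPM in the double CSS mice and 150 to 334 CPM in B6, so the groups did not overlap. The difference was 1.08 ± 0.09 in the double CSS and 1.06 ± 0.08 in the chromosome 17 CSS. Of the 8 measured genes of the Glo1 neighbourhood, 2 were called in the double CSS, Glo1 itself and Btbd9 (0.25 ± 0.07, adjusted p = 0.026).

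Lower in the double CSS was Plcl2, a phospholipase C-like protein (chr17:50509403-50688484, plus strand), at 12.41, 11.74, 11.97 and 9.945 CPM, below the lowest B6 mouse at 16.6 CPM. All 8 chromosome 17 CSS mice were below that B6 mouse too. The log2 fold change was -0.70 ± 0.08 in the double CSS and -0.50 ± 0.07 in the chromosome 17 CSS. Tedc2, a tubulin complex component, fell by 0.74 on the log2 scale (SE 0.14). Cyp39a1, an oxysterol hydroxylase of bile acid synthesis that was also called lower in both single strains, had -0.84 ± 0.25 (adjusted p = 0.025), yet double CSS mouse 1 was at 27.6 CPM and the other three at 53.1 to 70.1 CPM, within the B6 range of 49.66 to 135.5 CPM. Leaving out single double CSS mice moved its adjusted p to between 0.016 and 0.20, and it kept the call in 1 of the 4 fits. Adgrf1, an adhesion G protein-coupled receptor, at -0.67 ± 0.22, kept it in 0 of 4. Meiob, a meiotic recombination factor, was higher by 0.67 ± 0.14 with an interaction of -0.68 ± 0.20 (adjusted p = 0.095). The chromosome 17 CSS alone had 0.99 ± 0.11. The chromosome 10 CSS difference also enters this interaction and is not given here.

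The small RNA genes Snora78 (0.96 ± 0.23) and Gm23442 (1.16 ± 0.27), both snoRNAs on chromosome 17, were also higher in the double CSS, but neither was called in the chromosome 17 CSS (0.30 ± 0.20 and 0.44 ± 0.24), and both were called in the chromosome 10 CSS (0.75 ± 0.20 and 0.85 ± 0.24). The 35 measured members of the small RNA list had medians of 0.36 in the double CSS, 0.32 in the chromosome 17 CSS and 0.72 in the chromosome 10 CSS, with 1, 0 and 9 members called, against 0.602%, 3.7% and 6.67% of all genes. The part of this RNA class as a whole in both calls was not tested.

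The MHC list held 29 measured genes, every H2- symbol and 7 genes of antigen presentation. Of these, 27 lie on chromosome 17. In the double CSS 5 were called higher and 4 lower (DESeq2 called 8 in all), and in the chromosome 17 CSS 5 and 5, all on chromosome 17, where 7.78% and 17.1% of genes were called. In the chromosome 10 CSS 4 were called higher and 0 lower by edgeR (13 and 0 at an unadjusted p under 0.05), 27 of the 29 had positive values and the median was 0.13, against 3.69% of all genes called higher. The largest differences were in class I genes with low counts. H2-T10, listed as a polymorphic pseudogene (chr17:36115876-36121465), was at 6.77, 7.93, 6.96 and 5.97 CPM in the double CSS, 4.22 to 11.5 CPM in the chromosome 17 CSS and 0.358 to 1.80 CPM in B6. H2-Q2 (chr17:35342242-35346762) was at 4.82 to 5.79 CPM against 0.341 to 1.63 CPM, and H2-Q5 was higher by 1.49 ± 0.20. Also higher were H2-Aa, a class II chain (0.63), and Tap2, a subunit of the peptide transporter (0.34). Lower were H2-T22 (-0.62 ± 0.09), H2-Q10, a secreted class I protein of liver (-0.50), H2-T23 (-0.39) and H2-K1 (-0.27). H2-Aa and H2-K1 kept the call in 0 of 4 fits without 1 double CSS mouse, and Tap2 in 1. H2-Q10, H2-T23, H2-K1, H2-Aa and Tap2 were named after their values were seen, to complete the called members. The list median was 0.22, against 0.00 for all genes. For the interaction 0 of the 29 were called by edgeR or DESeq2, 4 had an unadjusted p under 0.05, all negative (6.26% of all genes were), and the smallest, that of H2-T23, was 0.0024. MHC genes and C4a share reads with near-identical neighbours, and reads from A/J alleles were placed in a second alignment step, so how counts divide among these genes was not tested.

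On chromosome 10, Vnn3 (chr10:23851462-23869843, plus strand) had the smallest adjusted p. Its levels were 61.0, 41.5, 62.2 and 49.1 CPM in the double CSS mice, 46.5 to 61.7 CPM in the chromosome 10 CSS and 66.2 to 113 CPM in B6. All double CSS and chromosome 10 CSS mice were below all B6 mice. The log2 fold change was -0.81 ± 0.12 in the double CSS and -0.70 ± 0.10 in the chromosome 10 CSS, and the interaction was 0.00 ± 0.16 (unadjusted p = 0.995). Its neighbour Vnn1, a target of the fatty acid receptor PPARα, was at 33.67, 18.1, 59.7 and 21.15 CPM, against 31.6, 69.9 and 111 CPM as lowest, median and highest in B6. Mice 1 and 3 were inside the B6 range and mice 2 and 4 below it. The log2 fold change of Vnn1 was -1.05 ± 0.29 in the double CSS, -0.94 ± 0.23 in the chromosome 10 CSS and 0.62 ± 0.21 in the chromosome 17 CSS, which left an interaction of -0.73 ± 0.38 (adjusted p = 0.41). The call held in 1 of 4 fits without 1 double CSS mouse.

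Raet1d, a stress-induced ligand of the receptor NKG2D, fell by 1.14 on the log2 scale (SE 0.26) in the double CSS and by 1.04 in the chromosome 10 CSS. Nhsl1, a NHS family protein, gave -0.61 ± 0.14 and -0.59 ± 0.11, and Snrpf, a spliceosome core protein, -0.47 ± 0.13 and -0.56 ± 0.11. Higher was Pde7b, a cAMP phosphodiesterase, at 0.54 ± 0.13 and 0.64 ± 0.11. For these 4 genes the interaction lay between -0.16 and 0.31, within its SE of 0.18 to 0.36. Without 1 double CSS mouse, the call against B6 held in 4 of 4 fits for Raet1d and in 3 for Nhsl1 and Pde7b. That of Snrpf held in 2, with an adjusted p up to 0.18. Tbc1d30, a Rab GTPase activator, was not called in the chromosome 10 CSS. Its levels in the double CSS mice were 7.64, 7.11, 12.9 and 5.76 CPM and the B6 median was 13.6 CPM, with -0.73 ± 0.24 in the double CSS, -0.22 ± 0.19 in the chromosome 10 CSS and an interaction of -0.94 ± 0.31 (adjusted p = 0.20). Its call held in 1 of 4 fits without 1 double CSS mouse. Slc19a1, a folate transporter (-0.45 ± 0.15), Avpr1a, the hepatic vasopressin receptor (0.46 ± 0.15), and the snoRNA Gm25117 (0.72 ± 0.23) each had an adjusted p of 0.0432 to 0.0462. Without each double CSS mouse in turn these 3 calls held in 1, 2 and 0 of 4 fits.

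**Figure D2:**
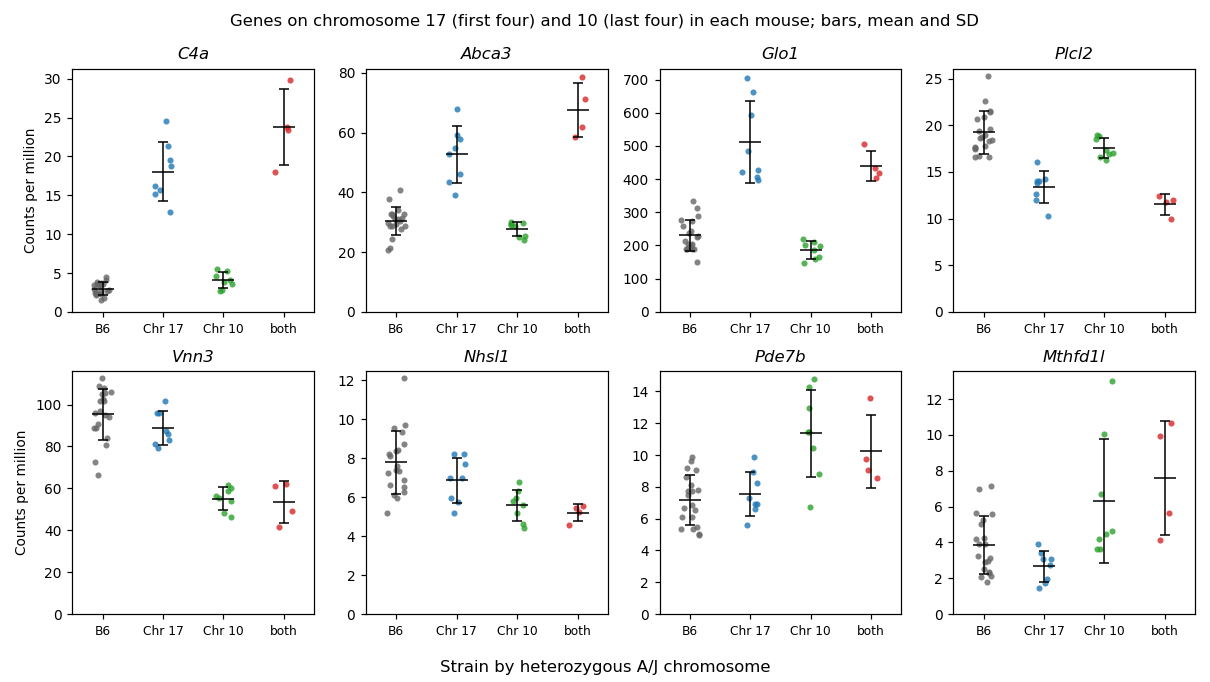
CPM of 4 genes on chromosome 17 (top row) and 4 on chromosome 10 (bottom row) in each mouse of B6, the chromosome 17 CSS, the chromosome 10 CSS and the double CSS (both), with group means and SD. C4a, Abca3, Glo1 and Plcl2 are shifted in the 2 strains with A/J chromosome 17, and Vnn3, Nhsl1 and Pde7b in the 2 strains with A/J chromosome 10, while Mthfd1l is spread widely within the double CSS.

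Each substitution could also be measured on a second background in mice that the first comparison did not use. For chromosome 17, the double CSS was set against the chromosome 10 CSS, which called 35 genes (0.263%), 33 of them on chromosome 17. For chromosome 10, it was set against the chromosome 17 CSS, which called 22 genes (0.166%), 20 of them on chromosome 10. The 108 chromosome 17 genes called in the chromosome 17 CSS against B6 had a median log2 difference of 0.33 in their own direction there and 0.11 on the chromosome 10 background, and 80 of them (74.1%) kept the sign. The 74 chromosome 10 genes gave 0.34 and 0.14, with 55 (74.3%) of the same sign. Over all genes of the substituted chromosome, 58.9% kept the sign for chromosome 17 and 58.9% for chromosome 10, and over all genes off it 49.0% and 54.2%. The genes were chosen on the first comparison, so a smaller second value is built into this choice.

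Genes called on other chromosomes had lower shares of the same sign. Of the 384 called for chromosome 17, 186 (48.4%) had the same sign on the second background, with a median difference of -0.01 where the first gave 0.31. Of the 384, 0 were called there by edgeR or DESeq2, and 27 had an unadjusted p under 0.05, as did 7.44% of all genes off chromosome 17. Of the 813 called for chromosome 10, 63.2% kept the sign, with medians of 0.29 and 0.05. Among these 813 there were 0 calls by edgeR or DESeq2 and 115 genes at an unadjusted p under 0.05, which 10.17% of all genes off chromosome 10 passed. The shares of the same sign rose without surrogate variables, to 70.4% of 1578 genes for chromosome 17 and 76.3% of 1227 genes for chromosome 10. Of these genes 1 and 18 were called on the second background. With 10 surrogate variables the shares were 46.3% of 41 and 60.2% of 974. Over all genes off the substituted chromosome they rose too, to 56.6% and 61.5% without surrogate variables, and were 46.6% and 53.3% with 10. For called genes on the substituted chromosome they were 73.5% to 82.4% under these settings, against 57.1% to 64.9% for all genes there.

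Against the chromosome 10 CSS, the 2 genes called off chromosome 17 were Gm25360, an snRNA gene, and Nop16, a nucleolar protein of ribosome biogenesis. Against the chromosome 17 CSS, the 2 called off chromosome 10 were Gm25360 and Ptms. Mthfd1l, a mitochondrial enzyme of one-carbon metabolism on chromosome 10 (chr10:3973118-4167081, plus strand), was higher in the double CSS than in the chromosome 17 CSS by 1.38 ± 0.28 (adjusted p = 0.0006, and 0.91 ± 0.23 against B6). Its levels were 5.64, 9.94, 4.16 and 10.7 CPM in the double CSS mice and 1.48 to 3.89 CPM in the chromosome 17 CSS, without overlap. Ptms, the nuclear protein parathymosin on chromosome 6, differed by 0.40 ± 0.08 (adjusted p = 0.011). Without 1 double CSS mouse it kept the call in 2 of 4 fits, and the adjusted p reached 0.28.

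Away from chromosomes 17 and 10, 6 genes were called against B6, 4 higher and 2 lower. The snRNA gene Gm25360 (chr1:72226240-72226430) was at 64.6 and 67.6 CPM in double CSS mice 1 and 2 but at 10.6 and 15.8 CPM in mice 3 and 4, which lay within the B6 range of 5.95 to 18.1 CPM. The fitted difference of 1.95 ± 0.26 thus came from 2 of 4 mice. In the chromosome 17 CSS 3 of 8 mice exceeded the B6 range, up to 38.8 CPM. Gstp1, a glutathione transferase with higher expression in male liver, was at 251, 319, 288 and 342 CPM against a B6 median of 161 CPM and a B6 range of 103.1 to 379.7 CPM (0.99 ± 0.21, adjusted p = 0.025). Zkscan3, a zinc-finger repressor of autophagy genes (chr13:21387003-21402755, minus strand), was higher in the double CSS and in both single strains. It gave 0.52 ± 0.08 in the double CSS, 0.42 ± 0.07 in the chromosome 17 CSS and 0.44 ± 0.07 in the chromosome 10 CSS, so that the double CSS fell short of the sum by 0.34 on the log2 scale (SE 0.12, adjusted p = 0.18). Fam13a (-0.73 ± 0.16), Cpped1 (-0.27 ± 0.06) and Cadm4 (0.92 ± 0.21), a cell adhesion molecule with an average log2 CPM under 2, each had an adjusted p of 0.044, and Cadm4 was named after its values were seen, to complete the 6. Apart from Gm25360, Zkscan3 and Cpped1, these genes were called in 0 of the 4 fits without one double CSS mouse, and Cpped1 in 1.

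The interaction of chromosomes 17 and 10 was called for 15 of 13289 genes (0.113%), with 5 positive and 10 negative values. At an unadjusted p under 0.05, 1630 genes passed (12.3%), 798 positive (6.0%) and 832 negative (6.26%). The median SE of the interaction was 0.149 on the log2 scale, the widest of the 6 comparisons. Of the 15 genes, 1 lay on a substituted chromosome, Timp3 on chromosome 10. On chromosome 17, 85 of 630 genes (13.5%) passed the unadjusted threshold and 0 the adjusted one (also 0 by DESeq2), and on chromosome 10 69 of 610 genes (11.3%) passed the unadjusted one. Every one of the 15 had single effects of one sign in both strains and an interaction of the opposite sign. In 14 of them the double CSS was closer to B6 than either single strain, and 0 of 15 were called in the double CSS against B6 by edgeR or DESeq2, with 3 at an unadjusted p under 0.05. The single effects are part of the interaction value, so this pattern is a description of these genes and not a second observation. The exception was Nop16, which was higher in the double CSS by 0.21 ± 0.07 and had -0.05 ± 0.06 and -0.19 ± 0.06 in the single strains. Against the chromosome 10 CSS, Nop16 was called (0.40 ± 0.08, adjusted p = 0.015).

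Timp3, an inhibitor of matrix metalloproteinases (chr10:86300372-86349506, plus strand), was at 26.11, 31.99, 29.54 and 42.08 CPM in the double CSS mice. The lowest, median and highest levels were 24.3, 33.2 and 42.2 CPM in B6, 20.8, 23.9 and 34.1 CPM in the chromosome 17 CSS and 24.01, 27.33 and 29.27 CPM in the chromosome 10 CSS. Both single strains were lower than B6, with log2 fold changes of -0.39 ± 0.08 and -0.43 ± 0.08, and the double CSS was within the B6 range. The interaction was 0.69 ± 0.14 (adjusted p = 0.0013). Without double CSS mouse 4, the highest, it was 0.54 and no longer called (adjusted p = 0.19), and it was called in 19 of 20 fits that left out 1 mouse of the substitution strains.

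Cd93, a receptor on endothelial cells and macrophages (chr2:148436640-148443563, minus strand), was also lower in both single strains. Its levels were 16.67, 17.83, 23.01 and 26.49 CPM in the double CSS and 14.02, 21.84 and 30.76 CPM, as lowest, median and highest, in B6, with -0.56 ± 0.10 in the chromosome 17 CSS, -0.38 ± 0.10 in the chromosome 10 CSS and -0.17 ± 0.12 in the double CSS. Of the 11 endothelial markers 0 were called in the double CSS by edgeR and 1 by DESeq2, and their summed level was 392.7 to 523.0 CPM there against 400.1 to 505.7 CPM in B6. In the chromosome 17 CSS 1 of these markers was called higher and 1 lower (1.73% and 1.97% of all genes), with 6 at an unadjusted p under 0.05 (19.1%). The summed level there was 403.5 to 479.0 CPM. In the chromosome 10 CSS 1 was called higher (3.69% of all genes), with 5 at an unadjusted p under 0.05 (21.95%), and the sum was 458.9 to 507.6 CPM. For the interaction 3 were positive and 3 negative at an unadjusted p under 0.05, against 6.0% and 6.26% of all genes, with 0 called by edgeR or DESeq2. The part of these cells in the Cd93 result was not tested. Map7d1, a microtubule-associated protein (interaction 0.59 ± 0.14), and Atp1b1, the β subunit of the sodium pump (0.99 ± 0.24), were the other positive genes. Atp1b1 was at 117.4 and 134.8 CPM in double CSS mice 2 and 4, above every B6 mouse (highest, 104 CPM), and at 40.9 and 55.4 CPM in mice 1 and 3, of which mouse 1 was below every B6 mouse.

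**Figure D3:**
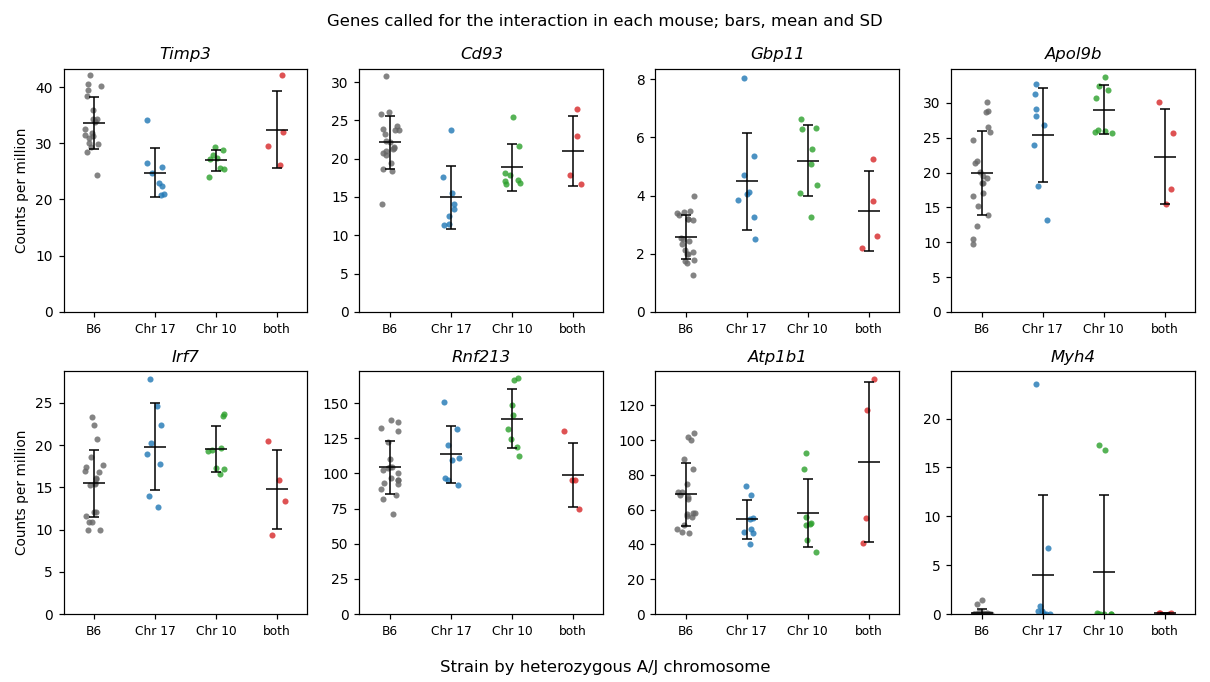
CPM of 8 genes called for the interaction in each mouse of B6, the chromosome 17 CSS, the chromosome 10 CSS and the double CSS (both), with group means and SD. Timp3 and Cd93 are lower and Gbp11 higher in both single strains than in B6, the double CSS mice overlap B6 for all 8 genes, and the Myh4 values above 2 CPM come from 2 chromosome 17 CSS and 2 chromosome 10 CSS mice. The share of all genes whose double CSS mice overlap B6 was not counted.

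Among the negative interactions, Gbp11, an interferon-inducible guanylate-binding protein gene listed as a polymorphic pseudogene (chr5:105323042-105346472, minus strand), had the largest value after Myh4. It was at 5.26, 2.62, 3.81 and 2.20 CPM in the double CSS mice, of which only mouse 1 exceeded the highest B6 mouse (4.0 CPM). In the chromosome 10 CSS 7 of 8 mice exceeded that level and in the chromosome 17 CSS 5 of 8. The single differences were 0.94 ± 0.17 and 1.03 ± 0.17 and that of the double CSS 0.47 ± 0.21, and the interaction was -1.50 ± 0.29 (adjusted p = 0.012). Irf7, the transcription factor that amplifies type I interferon (chr7:141262706-141266481, minus strand), was at 20.5, 9.32, 15.9 and 13.4 CPM, and the B6 median was 15.7 CPM. Its differences were 0.33 ± 0.10 for chromosome 17, 0.54 ± 0.10 for chromosome 10 and 0.13 ± 0.12 for both, with an interaction of -0.74 ± 0.17 (adjusted p = 0.040).

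Apol9b, an apolipoprotein L gene, had 0.45 ± 0.12, 0.81 ± 0.12 and 0.37 ± 0.14 in the chromosome 17, chromosome 10 and double CSS, and an interaction of -0.89 ± 0.20. Tlr3, the receptor for double-stranded RNA on chromosome 8, had -0.72 ± 0.17, Rnf213, a ubiquitin ligase of chromosome 11, -0.63 ± 0.15, and Tdrd7, a tudor-domain protein of chromosome 4, -0.39 ± 0.09. Also negative were Syne2, a nuclear envelope linker (-0.54 ± 0.12), Vps13b, a lipid transfer protein (-0.32 ± 0.07), and Macf1, a cytoskeletal cross-linker (-0.27 ± 0.06). In all 7 of these genes the double CSS mice overlapped B6. The share of all genes with such an overlap was not counted, so it does not set these genes apart.

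Because several of these genes are known to respond to interferon, their promoters (250 bases before to 50 after the start, RefSeq, GRCm38.p6) were searched for GAAANNGAAA, the core of the interferon-stimulated response element, or TTTCNNTTTC on the other strand. The table held windows for 12 of the 15 genes, 16 windows in all, of which 3 had a match, 2 of Apol9b that overlap and 1 of Tdrd7. Over all 32851 windows, 3.44% had one. One window of each is shown because both genes fell short of additivity in the double CSS, and capitals mark the matched letters. That of Apol9b, chr15:77728822-77729121 on the plus strand, holds 2 overlapping matches, and that of Tdrd7, chr4:45972047-45972346 on the plus strand, holds 1.
Apol9b: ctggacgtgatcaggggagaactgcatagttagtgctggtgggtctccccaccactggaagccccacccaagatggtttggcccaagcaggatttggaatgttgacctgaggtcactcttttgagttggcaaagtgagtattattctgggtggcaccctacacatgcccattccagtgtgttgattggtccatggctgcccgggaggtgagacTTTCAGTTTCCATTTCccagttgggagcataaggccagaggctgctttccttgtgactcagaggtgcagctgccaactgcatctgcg
Tdrd7: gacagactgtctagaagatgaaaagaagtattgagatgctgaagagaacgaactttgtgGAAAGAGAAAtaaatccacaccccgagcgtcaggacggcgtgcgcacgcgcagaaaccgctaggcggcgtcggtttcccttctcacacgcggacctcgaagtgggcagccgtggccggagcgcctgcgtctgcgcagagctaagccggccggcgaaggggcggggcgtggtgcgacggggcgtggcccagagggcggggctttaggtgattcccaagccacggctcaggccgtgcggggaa
The matches describe letters in these windows and not sites of binding. Irf7, Tlr3 and Rnf213 had windows without these letters.

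Myh4, a fast skeletal muscle myosin heavy chain (chr11:67238029-67260446), was called with a fitted interaction of -9.68 that cannot be read as a fold. In the double CSS it was at 0.042 to 0.14 CPM. The median was 0.00 CPM in B6 and in the chromosome 10 CSS and 0.32 CPM in the chromosome 17 CSS, and only 2 mice of each single strain exceeded the highest B6 mouse at 1.45 CPM, up to 23.5 and 17.3 CPM. The call was lost in 14 of 20 fits without 1 mouse.

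The 15 calls depended on single mice and on the surrogate variables. Leaving out double CSS mice 1 to 4 in turn gave 142, 3, 23 and 1 genes. Without surrogate variables 1 gene was called, with 10 of them 28. Cis calls of the double CSS against B6 varied less, with 35 to 62 genes called on the 2 chromosomes over the same 4 fits.

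**Figure D4:**
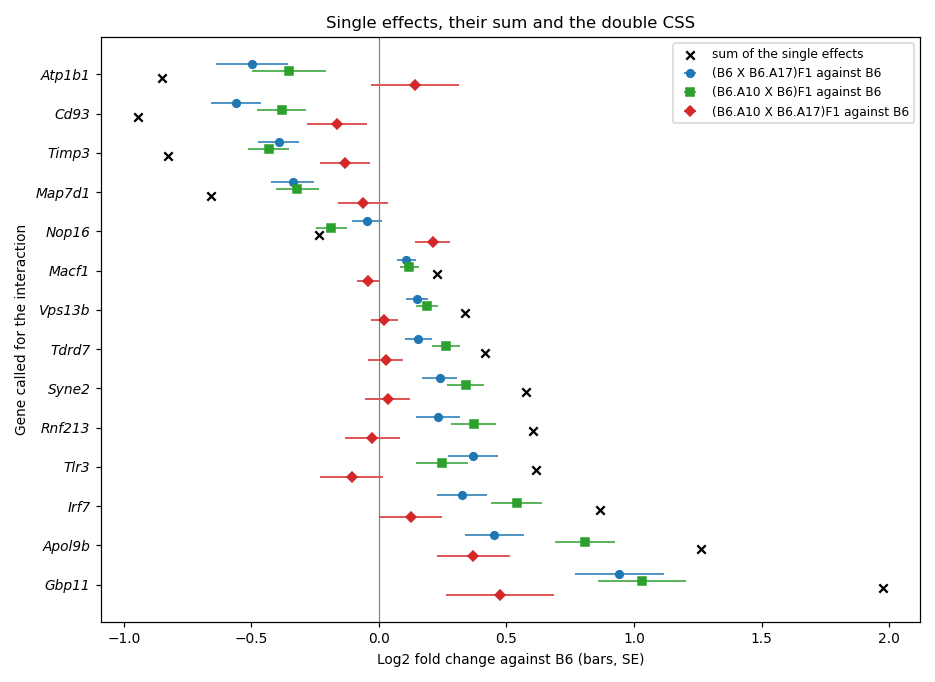
Log2 fold changes against B6 with SE for 14 of the 15 genes called for the interaction, leaving out Myh4, in the chromosome 17 CSS (circles), the chromosome 10 CSS (squares) and the double CSS (diamonds), with the sum of both single effects (crosses). The diamonds lie nearer to 0 than the crosses for the 14 genes shown, and for Nop16 the diamond lies at 0.21 and the cross at -0.23.

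The interferon list, 25 genes all in the table, holds Irf7 among the genes above. Its median log2 difference was 0.25 in the chromosome 17 CSS, 0.34 in the chromosome 10 CSS and 0.05 in the double CSS, against 0.00 for all genes in each. Against the backgrounds of 1.73% and 3.69% of genes called higher, 2 and 11 of the 25 were called higher in the single strains, and 0 in the double CSS (also 0 by DESeq2, and 2 at an unadjusted p under 0.05). For the interaction the list median was -0.46, and 14 of 25 members (against 6.26% of all genes) had a negative value with an unadjusted p under 0.05, of which Irf7 was called. Ifi47 (-0.80 ± 0.27) and Ddx60, an RNA helicase (-0.45 ± 0.19), were among them, as was the chemokine Cxcl10 (-0.93 ± 0.36), named after its values were seen. Gbp2 (-0.30 ± 0.24) and Oas1a (-0.15 ± 0.30) did not pass. Summed over the list, double CSS mice 1 to 4 were at 751.7, 438.1, 690.3 and 379.5 CPM. The lowest, median and highest were 362.5, 592.5 and 833.7 CPM in B6, 446.9, 749.7 and 803.7 CPM in the chromosome 17 CSS and 629.8, 683.3 and 721.2 CPM in the chromosome 10 CSS. Double CSS mice 1 and 3 were thus among the higher mice and mice 2 and 4 near the lowest B6 mouse. The list median of the interaction was -0.29 without mouse 2, with 7 members under 0.05, and -0.64 without mouse 1, with 17. It was -0.57 without surrogate variables and -0.41 with 10. Members of this list respond to common signals and are not independent. Summed Kupffer cell and macrophage markers had a median of 472.8 CPM in the double CSS (lowest, 396.5 CPM) and 489.6 CPM in B6 (408.5 to 665.4 CPM). They were at 475.0 to 798.1 CPM in the chromosome 17 CSS, where 1 of 11 was called higher (1.73% of all genes), with a median log2 difference of 0.13. There 4 were higher at an unadjusted p under 0.05, which 19.1% of all genes passed in either direction. In the chromosome 10 CSS they were at 422.8 to 593.7 CPM, with 1 called lower (2.98% of all genes) and a median of 0.02. For the interaction 10 of the 11 were negative, 2 of them at an unadjusted p under 0.05 (6.26% of all genes), with a median of -0.10. The part of these cells in the interferon result was not tested.

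Genes of ATF4 and endoplasmic reticulum stress, which widen protein folding capacity, had a median interaction of -0.24 over 22 genes, with 7 negative and 0 positive at an unadjusted p under 0.05 (6.26% and 6.0% of all genes) and 0 called by edgeR or DESeq2. Hsp90b1, a chaperone of the endoplasmic reticulum (-0.40 ± 0.14), was among them, as were Pdia6 (-0.58 ± 0.17) and Pdia4 (-0.55 ± 0.16), disulfide isomerases named after their values were seen, whereas Atf4 itself gave 0.02 ± 0.12. The chromosome 10 CSS alone had 4 members called higher and 1 lower, against 3.69% and 2.98% of all genes. For the 35 small RNA genes the median interaction was -0.66, with 8 negative at an unadjusted p under 0.05 (6.26% of all genes). With 10 surrogate variables that median was -0.31, with 1 negative and 1 positive at the same threshold.

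Of 81 cytoplasmic ribosomal protein genes, 13 were called higher in the chromosome 17 CSS (1.73% of all genes were), with a list median of 0.15, and 8 lower in the chromosome 10 CSS (2.98% of all genes), with a list median of -0.12. Values were positive for 80 of the 81 in the former and for 4 in the latter. In the double CSS 0 were called by edgeR or DESeq2, 3 had an unadjusted p under 0.05, and the median was 0.02. The median interaction was -0.0048, with 0 called and 2 at an unadjusted p under 0.05. At an unadjusted p under 0.05, 27 were higher in the double CSS than in the chromosome 10 CSS (3.8% of all genes) and 28 lower than in the chromosome 17 CSS (5.27% of all genes). Summed levels were 7086 to 7629 CPM in the double CSS, 7031 to 12900 CPM in the chromosome 17 CSS, 5990 to 7097 CPM in the chromosome 10 CSS and 5740 to 8972 CPM in B6. Without surrogate variables the list medians were 0.30 and -0.16, with 10 of them 0.10 and -0.12, and without chromosome 17 CSS mice 1 and 2 that of chromosome 17 was 0.13.

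**Figure D5:**
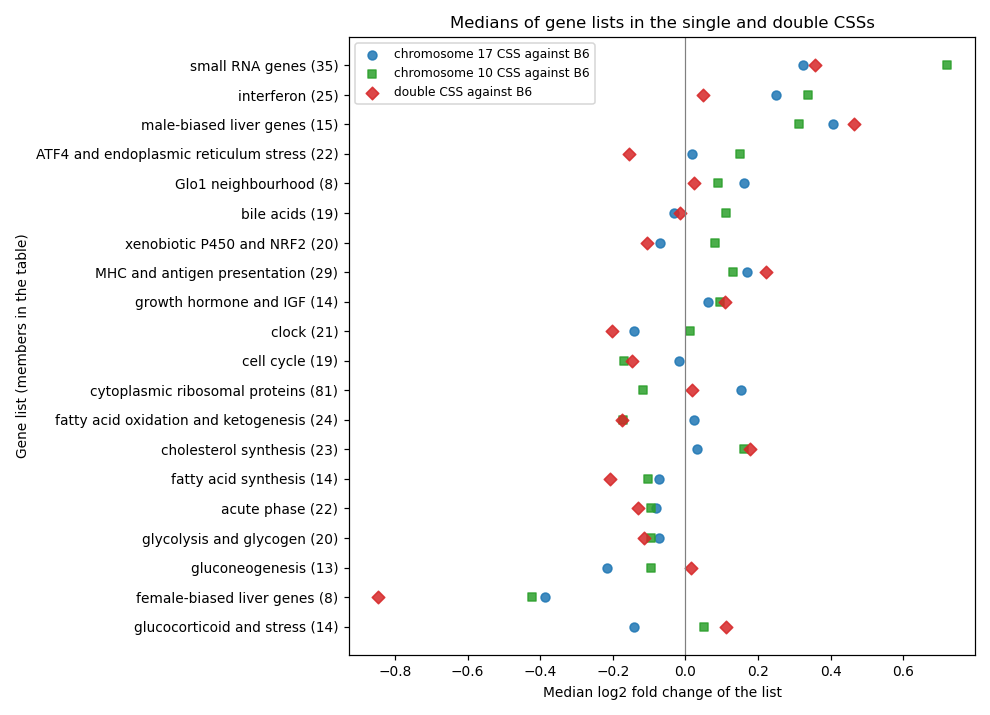
Median log2 fold change against B6 of 20 gene lists in the chromosome 17 CSS (circles), the chromosome 10 CSS (squares) and the double CSS (diamonds), ordered by the median interaction with the most negative at the top. The interferon diamond lies at 0.05, below both single strains, while the ribosomal protein diamond lies at 0.02, between them.

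Of 24 genes of fatty acid oxidation and ketogenesis, 1 (Vnn1, on chromosome 10) was called lower in the double CSS. The chromosome 10 CSS had 2 called lower (2.98% of all genes were). Of these, 1 lay on chromosome 10, where 12.1% of genes were called in either direction. List medians were -0.17 in the chromosome 10 CSS and -0.18 in the double CSS. Ppara, the receptor that drives this program in fasting, gave -0.33 ± 0.12 (adjusted p = 0.30). Of 13 gluconeogenesis genes 0 were called in the double CSS (1 at an unadjusted p under 0.05) and 2 lower in the chromosome 17 CSS (1.97% of all genes), with medians of 0.02 and -0.22. Their median interaction was 0.18, with 11 positive values, 4 of them at an unadjusted p under 0.05 (6.0% of all genes), and 0 called by edgeR or DESeq2. Against 0.602% of all genes called in the double CSS and 10.8% at an unadjusted p under 0.05, there were 0 calls by edgeR or DESeq2 among 20 genes of glycolysis and glycogen (median -0.11, 6 at an unadjusted p under 0.05), 23 of cholesterol synthesis (0.18, 5), 14 of fatty acid synthesis (-0.21, 5), 19 of bile acid metabolism (-0.01, 4) and 14 of growth hormone and IGF (0.11, 5). Hsd3b7, a bile acid synthesis enzyme, came nearest at 0.34 ± 0.09 (adjusted p = 0.12), and it was called in the chromosome 10 CSS (0.46 ± 0.07). The bile acid list had a median interaction of -0.15, with 4 negative at an unadjusted p under 0.05 (6.26% of all genes) and 0 called by edgeR or DESeq2.

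Male-biased liver genes had a median of 0.46 in the double CSS over 15 genes, with 1 (Gstp1) called. The 8 female-biased genes measured had -0.85 with 0 called and 3 at an unadjusted p under 0.05 (10.8% of all genes). In the chromosome 17 and chromosome 10 CSS the medians were 0.41 and 0.31 for male-biased genes, with 4 and 3 called higher (1.73% and 3.69% of all genes were). For female-biased genes they were -0.39 and -0.42, with 0 and 2 called lower by edgeR (1.97% and 2.98% of all genes were). The median interaction of the male-biased genes was -0.32, with 3 negative at an unadjusted p under 0.05 (6.26% of all genes). That of the female-biased genes was 0.19, with 0 at that threshold, and neither list had a call for the interaction by edgeR or DESeq2. Hsd3b5, a male-biased steroid dehydrogenase, illustrates the spread, with 35.25, 7.316, 21.69 and 16.02 CPM in the double CSS mice and 1.09 to 58.7 CPM in B6. Clock genes had 0 calls by edgeR or DESeq2, 9 genes at an unadjusted p under 0.05 (10.8% of all genes) and a median of -0.20 over 21 genes. Arntl, which encodes BMAL1, gave 0.84 ± 0.24 (adjusted p = 0.17) and Per2 -0.67 ± 0.27. The hour of collection of each mouse was not given in the sources used here. The 22 acute-phase genes (median -0.13, 4 at an unadjusted p under 0.05), the 14 glucocorticoid and stress genes (0.11, 1), the 20 xenobiotic P450 and NRF2 genes (-0.10, 2) and the 19 cell cycle genes (-0.15, 4) had 0 calls in the double CSS by edgeR or DESeq2. The glucocorticoid and stress genes had a median interaction of 0.22, with 3 positive at an unadjusted p under 0.05 (6.0% of all genes) and 0 called.

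The range of each marker sum in the double CSS overlapped that of B6. Beside the endothelial and macrophage sums above, the 11 stellate and fibroblast markers summed to 417.5 to 583.5 CPM in the double CSS and 402.6 to 655.9 CPM in B6, the 4 measured cholangiocyte markers to 22.82 to 59.39 and 21.32 to 59.67 CPM, the 5 erythroid markers to 147.2 to 579.0 and 110.5 to 739.0 CPM, and the 6 measured lymphocyte markers to 8.30 to 15.6 and 8.62 to 17.1 CPM. The 2 neutrophil markers in the table reached 9.72 CPM in the double CSS and 14.3 CPM in B6. By edgeR 0 of these markers were called in the double CSS, and DESeq2 called 1 endothelial marker. Only 1 of 7 exocrine pancreas markers was in the table, at 4.595 to 6.057 CPM against 3.267 to 6.434 CPM. In bulk liver, fewer cells of a type and less RNA per cell cannot be told apart.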

How the data were processed

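Liver RNA-seq was analysed from a table of read counts per gene that the authors deposited. The authors mapped reads with TopHat2 to mm10 and then mapped what was left to a genome carrying A/J variants, counted with HTSeq, removed genes with few counts and left out 3 outlying mice, 1 of them a double CSS mouse, which is not analysed here. The counts were used as deposited, in 13289 genes and 154 mice of 24 strains. Strains were taken from the sample labels, and replicate numbers follow accession order. The submitters' processing notes also name edgeR.

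The model was fitted in edgeR 4.0.16 (R 4.3.3) with TMM scaling, its quasi-likelihood test, 8 main effects, 15 interactions and 5 surrogate variables from sva 3.50.0. Benjamini-Hochberg adjustment was done within genes on the substituted chromosomes and within the others. SEs were derived from the F statistics. Each is the precision of a fitted difference and not the spread between mice. Positions are from GENCODE vM21 (mm10), and 47 genes had no chromosome and were tested with the others. On simulated data with 13289 genes, the interaction test recovered 94 of 100 genes changed by 1 and 99 of 100 changed by 1.5 on the log2 scale, and called 18 unchanged genes. The changed genes were drawn from those with higher counts, and no single-strain effects or unlabelled variation were simulated. The median absolute interaction of the 15 called genes was 0.69, below both simulated sizes, and recovery at that size was not tested.

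Genes were named by rule. These were every gene called for the interaction, the 10 largest differences against B6 per class (chromosome 17, chromosome 10, elsewhere) at an average log2 CPM of 2 or more, up to 4 members of each list by p, and up to 5 called genes from each comparison with a single CSS. Genes named outside the rule are marked in the text. The strains, lists and rule were chosen with earlier results of these data known, so none is independent evidence. Alternatives were 0 or 10 surrogate variables, the 40 mice alone, DESeq2 1.42.0 and its size factors, a filter of at least 15 counts in 75% of the mice, other dispersion settings, adjustment over all genes and leaving out each mouse of the substitution strains. Leaving out chromosome 17 CSS mice 1 and 2 together was added after seeing the data. The flow cell of each library was not given in the sources used here. Values of 2 list members are not reported here.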

Additional observations from a re-analysis of the deposited data

Results flagged for a closer look

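The interaction itself tests whether the effect of one chromosome differed between backgrounds, and 15 genes passed it. The log2 values were 0.69 for Timp3, 0.78 for Cd93, 0.44 for Nop16, 0.59 for Map7d1 and 0.99 for Atp1b1. They were -1.50 for Gbp11, -0.54 for Syne2, -0.89 for Apol9b, -0.74 for Irf7, -0.32 for Vps13b, -0.72 for Tlr3, -0.27 for Macf1, -0.63 for Rnf213 and -0.39 for Tdrd7. Myh4 gave -9.68, with values near 0 in most mice.

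In 4 of 159 groups of named genes within a strain, the lowest mouse lay far from the others by Dixon's criterion, which chance meets in about 1 in 20 groups. These were H2-Q5 in the chromosome 10 CSS at 0.772 CPM, H2-K1 in the double CSS at 418.4 CPM, H2-Aa in the double CSS at 14.1 CPM and Tap2 in the chromosome 17 CSS at 8.58 CPM.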

How the results depend on the processing

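The interaction called 15 genes, 1 without surrogate variables, 28 with 10, and among the 4 strains alone 0 with edgeR and 5 surrogate variables (868 at an unadjusted p under 0.05) and 1 without them. DESeq2 called 18. Without 1 mouse the count was 1 to 142. It moved by over 1.5 times without chromosome 17 CSS mice 3 (1), 4 (1), 5 (42), 7 (5) and 8 (77), chromosome 10 CSS mice 1, 3, 7 and 8 (4 each), 2 (93) and 6 (2), and double CSS mice 1 (142), 2 (3), 3 (23) and 4 (1).

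For the double CSS against B6, the 74 calls on the substituted chromosomes were 48 without surrogate variables, 27 in the 4 strains without them, 29 with adjustment over all genes and 35 to 78 without 1 mouse (35 and 39 without double CSS mice 1 and 4). The 6 calls elsewhere were 2, 1 and 15 under those settings, 2 with 10 surrogate variables, 3 without chromosome 17 CSS mice 1 and 2 or mouse 1 alone, and 1 to 11 without 1 mouse (1, 2, 11 and 2 without double CSS mice 1 to 4).

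For the chromosome 17 CSS against B6, the 108 calls on chromosome 17 were 59 in the 4 strains with surrogate variables, 69 with adjustment over all genes, 71 with the count filter and 64 to 134 without 1 mouse (64 without its mouse 3). The 384 elsewhere were 1578 without surrogate variables, 41 with 10, 23 and 1063 in the 4 strains with and without them, 156 without mice 1 and 2, 97 with the filter and 36 to 1136 without 1 mouse. Without its mice 2, 3, 4, 5 and 8 there were 234, 36, 41, 1136 and 866, without chromosome 10 CSS mouse 2 644, and without its mouse 6 1.9% of the genes.

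For the chromosome 10 CSS against B6, the 813 calls elsewhere were 1227 without surrogate variables, 410 in the 4 strains with them and 435 to 892 without 1 mouse (435 and 503 without its mice 6 and 7). For the double CSS against the chromosome 10 CSS, the 33 calls on chromosome 17 were 16 with adjustment over all genes. The 2 elsewhere were 1 with 10 surrogate variables or in the 4 strains with them, 0 by edgeR in the 4 strains without them (876 at an unadjusted p under 0.05), 5 with adjustment over all genes and 0 to 3 without 1 mouse (0, with 665 at an unadjusted p under 0.05, without double CSS mouse 2, and 1 without its mice 1 or 4 or chromosome 10 CSS mice 6 or 7). Against the chromosome 17 CSS, the 20 calls on chromosome 10 were 32 without surrogate variables, 10 and 12 in the 4 strains with and without them, 8 with adjustment over all genes and 12 to 23 without 1 mouse (12, 12 and 13 without double CSS mice 1 and 4 and chromosome 17 CSS mouse 7). The 2 elsewhere were 90 without surrogate variables, 1 with 10 of them or with the filter, 0 in the 4 strains without them by edgeR (1944 at an unadjusted p under 0.05), 5 with adjustment over all genes, 4 with DESeq2 and 0 to 14 without 1 mouse. They were 0 (1168 at an unadjusted p under 0.05) and 14 without double CSS mice 2 and 3, and 1 without its mice 1 or 4 or chromosome 17 CSS mice 3, 5 or 7. The causes were not tested.

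Over 55 results of named genes, all of them called to begin with, 1267 repeated values kept direction and side of the threshold. A further 378 kept direction and lost the call, 235 of them without 1 mouse, and 0 changed direction. Genes named only as list members did not enter. Most repeats left out 1 mouse, so a kept direction is largely built into this count. No paired analysis was possible because replicate numbers were given in accession order and pair no mice. With 4 double CSS mice, a median SE of 0.149 limits the interaction.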
